A study of Mus musculus with 24 samples.

Results

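Cytosolic ribosomal protein genes encode the protein parts of the ribosome that makes cellular proteins. They were taken as every gene listed for either tissue whose symbol begins with Rpl or Rps and a digit, or is Rplp0, Rplp1, Rplp2 or Rpsa, without the S6 kinases, whose symbols begin with Rps6k. The rule found 141 of the 22562 listed genes. Of these, 46 encode proteins of the large subunit and 31 encode proteins of the small subunit, and these 77 are called subunit genes. A further 55 carry pseudogene symbols ending in -ps, with or without a number, and are called named copies, 8 are paralogs such as Rpl3l and Rps27l, and Rps19bp1, which the rule also takes, encodes a protein that binds Rps19 and is not part of the ribosome. All 77 subunit genes were expressed in every library, whereas 4 members stood at 0 in every cerebellum library and 4 in every cortex library.

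Total RNA was sequenced from whole cerebellum and whole cortex of mice with defects in the repair of DNA strand breaks, and the question was how such defects alter brain gene expression. Double mutants (Atm Nes-cre; Aptx-/-) are described as losing the DNA damage kinase ATM in cells of the Nestin-cre lineage, that is mainly the nervous system, and the strand-break repair factor aprataxin in all cells. Aptx mutants (Aptx-/-) and Atm mutants (Atm Nes-cre) carried 1 change each by their genotype labels, although the study's text also writes Atm-/- for the single mutants, and the labels describe controls with no further genotype. There were 6 cerebella of double mutants, 2 of Aptx mutants, 2 of Atm mutants and 4 of controls, and the cortex was sequenced for 6 double mutants and 4 controls. The study used animals of either sex, described as 10 to 12 months old, and separate animals, but the labels name only samples, so the p-values measure the spread between these samples.

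A ribosome holds a single copy of most of its proteins, and the messages of these proteins share a 5′ terminal oligopyrimidine (TOP) start through which their translation follows the growth kinase mTOR. Ribosomal protein genes have left many processed pseudogenes in mammalian genomes, intronless DNA copies of the spliced message. Several of the genes carry small nucleolar RNA genes in their introns, and free ribosomal proteins such as Rpl5 and Rpl11 bind Mdm2, the inhibitor of p53.

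Because the results turn on genes and copies that are nearly the same sequence, the coding sequences of 76 subunit genes were searched in the genome (build mm9). At an identity of at least 95% over at least 90% of the coding sequence, 70 of them had a copy, with 551 copies in all, a median of 6 per gene and up to 54 for Rpl21. The longest annotated coding sequence of each gene was searched, so copies of a shorter message can be missed. Rpl24 (3153 bases), Rpl13a (1272) and Rps19 (639) gave 0 copies, although members such as Rpl13a-ps1 and Rps19-ps1 are named as copies. Of these copies, 125 were genes listed in the files, 35 of them members and 90 under other names, mostly Gm and a number. The following stretches of 240 coding bases are shown for the genes whose levels moved against a copy (Rps3a, Rpl34) or together with one (Rpl29), with capitals at the bases that differ within each set.

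Rps3a, coding bases 523 to 762, from the gene at chr3:85941862-85946624, minus strand, is shown with Gm10119 at chr14:88522854-88523093, minus strand, and Gm9000 at chr13:109461319-109461558, plus strand.
Rps3a: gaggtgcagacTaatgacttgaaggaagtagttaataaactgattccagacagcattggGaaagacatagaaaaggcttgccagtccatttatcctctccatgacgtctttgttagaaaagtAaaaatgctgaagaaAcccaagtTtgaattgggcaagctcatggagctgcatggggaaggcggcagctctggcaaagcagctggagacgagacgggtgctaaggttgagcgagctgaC
Gm10119: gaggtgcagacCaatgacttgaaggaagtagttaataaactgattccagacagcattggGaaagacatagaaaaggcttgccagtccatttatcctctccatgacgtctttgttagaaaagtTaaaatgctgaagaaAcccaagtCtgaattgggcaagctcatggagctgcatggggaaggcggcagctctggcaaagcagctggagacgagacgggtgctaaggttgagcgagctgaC
Gm9000: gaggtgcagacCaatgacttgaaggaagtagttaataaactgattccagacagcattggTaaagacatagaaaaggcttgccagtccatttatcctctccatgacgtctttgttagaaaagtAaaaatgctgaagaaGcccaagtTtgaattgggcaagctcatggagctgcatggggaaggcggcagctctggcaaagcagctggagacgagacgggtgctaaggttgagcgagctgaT
Over the whole coding sequence of 795 bases Gm10119 differed from Rps3a at 4 bases and Gm9000 at 9, with the longest identical runs spanning 317 and 215 bases.

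Rpl34, coding bases 79 to 318, from the gene at chr3:130429749-130433316, minus strand, is shown with Gm10154 at chr4:83151125-83151364, minus strand.
Rpl34: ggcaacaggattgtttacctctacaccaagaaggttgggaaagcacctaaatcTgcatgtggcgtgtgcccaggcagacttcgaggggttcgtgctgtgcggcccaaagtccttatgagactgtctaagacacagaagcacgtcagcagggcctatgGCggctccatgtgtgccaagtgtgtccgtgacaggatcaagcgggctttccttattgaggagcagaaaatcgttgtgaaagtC
Gm10154: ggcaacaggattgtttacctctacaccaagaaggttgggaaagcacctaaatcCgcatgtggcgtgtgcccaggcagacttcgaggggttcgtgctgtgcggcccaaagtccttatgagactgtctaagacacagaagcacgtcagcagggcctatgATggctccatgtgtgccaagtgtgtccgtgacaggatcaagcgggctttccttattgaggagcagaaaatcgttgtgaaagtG
They differed at 4 of 354 coding bases, with a longest identical run of 131.

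Rpl29, coding bases 184 to 423, from the gene at chr9:106331785-106333899, plus strand, is shown with Gm10709 at chr9:7751908-7752147, plus strand.
Rpl29: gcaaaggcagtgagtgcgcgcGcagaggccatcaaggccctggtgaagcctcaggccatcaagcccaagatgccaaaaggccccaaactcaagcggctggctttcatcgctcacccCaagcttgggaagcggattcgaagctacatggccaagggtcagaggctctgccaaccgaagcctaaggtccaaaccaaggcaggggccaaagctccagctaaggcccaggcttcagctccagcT
Gm10709: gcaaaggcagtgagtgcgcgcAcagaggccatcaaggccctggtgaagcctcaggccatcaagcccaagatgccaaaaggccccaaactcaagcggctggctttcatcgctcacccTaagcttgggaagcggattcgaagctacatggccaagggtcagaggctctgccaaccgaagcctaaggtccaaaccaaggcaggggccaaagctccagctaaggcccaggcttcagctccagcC
They differed at 4 of 483 coding bases, with a longest identical run of 204. How reads that match several places were counted is not given in the sources used here, so the level of any single gene that has such a copy is uncertain.

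Levels are given as FPKM, that is sequenced fragments divided by transcript length and by library size, so that genes of different length can be compared. The sums of FPKM ran from 229937 to 247730 in cerebellum and from 239529 to 554380 in cortex, where Gm10654 alone made up 322070 FPKM of control 4. In cortical controls 1, 2 and 3 Gm10654 stood at 4221, 7289 and 2951 FPKM, against 0.0133 to 1.83 in cortical double mutants. Without Gm10654 the cortical sums were 232311 to 239565 in controls and 249147 to 256459 in double mutants. Cerebellar sums were 229937 to 236086 in controls, 238127 to 247730 in double mutants and 239079 to 245169 in single mutants. In both tissues every mutant library thus summed higher than every control. Between 12385 and 12691 genes in cerebellum and between 12427 and 12774 in cortex reached 1 FPKM. Markers of the cerebellum summed to 722 to 1114 FPKM in cerebellum and 35.3 to 64.5 in cortex, and cortical markers to 54.3 to 89.1 FPKM in cortex and 8.23 to 11.8 in cerebellum. Atm was at 7.59 to 9.14 FPKM in double-mutant, 8.69 to 9.11 in Aptx-mutant, 7.45 to 8.22 in Atm-mutant and 6.75 to 7.13 in control cerebella, so its gene level was not lower in the mutants and does not check the Atm labels. Aptx was at 2.09 to 2.86 FPKM in double-mutant and 2.25 to 2.77 in Aptx-mutant cerebella, against 3.39 to 3.67 in Atm mutants and 3.11 to 3.59 in controls, and at 2.53 to 3.002 in cortical double mutants against 4.26 to 4.53 in controls, lower but not absent. Library names carry a different series code in mutants and in controls, so genotype and library series cannot be told apart. All control columns and those of double mutant 6 were written with more significant digits than the others (at least 98.5% of values with over 10 digits, against at most 0.0448%). Pituitary markers, which stand for carried-over tissue, summed to 1.32 to 9.94 FPKM in double-mutant and 9.99 to 155 in control cerebella, and to 0.804 to 2.18 in double-mutant and 5.38 to 88.7 in control cortices. Other marker sums that did not overlap in cerebellum were those of the cerebellum itself (919 to 1049 FPKM in double mutants, 722 to 883 in controls), of astrocytes (452 to 512 in double mutants, 326 to 374 in controls) and of brain stem (1.19 to 2.18 in double mutants, 3.06 to 6.65 in controls). In cortex they were those of the cortex itself (68.1 to 89.1 FPKM in double mutants, 54.3 to 60.8 in controls), of astrocytes (235 to 277 in double mutants, 201 to 233 in controls) and of oligodendrocytes (354 to 571 in double mutants, 609 to 718 in controls). Y-linked Ddx3y stood at 24.7 to 28.9 FPKM in the cerebella of double mutants 2, 3 and 5 and Aptx mutant 1, at 2.30 in double mutant 6 and at no more than 0.103 in all other cerebella, all controls included, so sex was unevenly spread over the genotypes. The part of these differences in any result below was not tested.

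The summed level of the subunit genes overlapped between double mutants and controls, and single mutants lay lower. In cerebellum their summed level was 7525 ± 447 FPKM in double mutants (SD, n = 6), 6626 ± 120 in Aptx mutants (n = 2), 6487 ± 153 in Atm mutants (n = 2) and 7552 ± 466 in controls (n = 4). The double-mutant libraries ran from 7125 to 8316 FPKM and the controls from 6930 to 8055, so those groups overlapped, whereas all 4 single-mutant libraries, at 6379 to 6711, lay below every other cerebellum library. In cortex the sum was 7747 ± 450 FPKM in double mutants and 7785 ± 246 in controls, again overlapping. In whole tissue, fewer cells of a type and less RNA per cell cannot be told apart. Subunit genes took 2.60% to 3.44% of the FPKM sum of a cerebellum library and 2.95% to 3.46% of a cortex library when Gm10654 was left out.

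**Figure D1:**
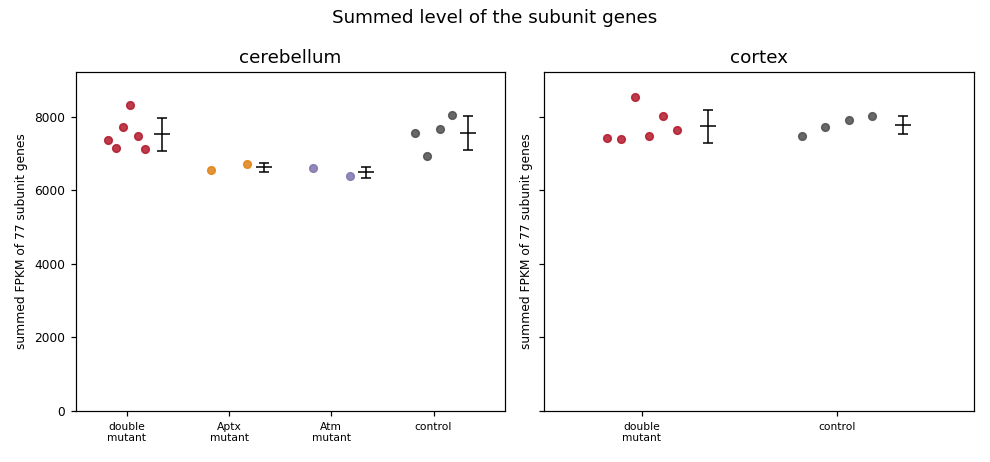
Summed level of the 77 subunit genes in FPKM (vertical axis) for every library by genotype, in cerebellum (left) and cortex (right); points are libraries and bars are the mean ± SD. Double mutants and controls overlap in both tissues, and the 4 single-mutant cerebella lie lowest, between 6379 and 6711.

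Single genes covered a wide range. Mean levels in control cerebella ran from 13.3 FPKM for Rps16 to 371 for Rplp1, an acidic protein of the ribosomal stalk, with a median of 83.9 over the 77 genes. Rpl26 (231 FPKM), Rps15 (223), Rpl41 (208) and Rps3a (197) came next. In control cortex they ran from 11.9 to 428 FPKM with a median of 84.7. Libraries of a genotype were tight for most genes: the median coefficient of variation was 6.96% in double-mutant and 7.32% in control cerebella, and 7.92% in double-mutant and 4.98% in control cortex. The widest were Rpl34, at 73.5% in double-mutant cerebella, and Rps3a, at 37.7% in control cerebella, and the tightest gene in control cerebella was Rpl29, at 1.74%.

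Rpl29, a small protein of the large subunit without which mice survive but grow poorly, was the subunit gene with the largest fall in double and Aptx mutants. In cerebellum it ran from a lowest 6.99 over a median of 7.53 to a highest 10.1 FPKM in double mutants, stood at 7.25 and 8.34 FPKM in Aptx mutants and at 42.0 and 61.3 in Atm mutants, and at 78.3, 77.9, 78.5 and 80.9 in controls. Double-mutant and Aptx-mutant cerebella thus shared a low level, Atm mutants lay between, and no mutant library reached a control. In cortex, double mutants ran from 5.68 over 9.02 to 11.1 FPKM, against 55.2, 55.1, 54.9 and 57.4 in controls. Differences are given as log2 fold changes of FPKM + 1, tested with limma and adjusted over all genes of the tissue, and a gene is said to have risen, fallen or changed at an adjusted p below 0.05. Rpl29 fell in double mutants by 3.18 ± 0.10 (SE, adjusted p = 1.19e-10) in cerebellum and by 2.54 ± 0.13 (adjusted p = 8.23e-08) in cortex, and its copy Gm10709 stood at 1.93 to 2.96 FPKM in double-mutant and 8.21 to 9.74 in control cerebella. Among the single mutants Rpl29 fell by 3.19 ± 0.14 in Aptx mutants (adjusted p = 7.86e-09) and by 0.63 ± 0.14 in Atm mutants (adjusted p = 0.0116), a call that was lost without Atm mutant 1 (−0.36, adjusted p = 0.177). Double mutants differed from Atm mutants by −2.56 ± 0.13 (adjusted p = 3.81e-08) and from Aptx mutants by 0.00 ± 0.13 (adjusted p = 0.998).

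Rps3a, a platform protein of the small subunit near the exit of the message, fell in every mutant genotype. Cerebellar levels ran from 36.1 over 38.6 to 42.5 FPKM in double mutants, and were 35.5 and 35.0 in Aptx mutants, 32.6 and 29.8 in Atm mutants, and 172, 141, 170 and 307 in controls. Control 4 was far above the other controls, and all mutants lay below all controls. The log2 fold change was −2.26 ± 0.15 (adjusted p = 1.82e-07) in double mutants, −2.39 ± 0.20 (adjusted p = 6.7e-06) in Aptx mutants and −2.56 ± 0.20 (adjusted p = 3.11e-06) in Atm mutants, and without control 4 it was −2.03 in double mutants. In cortex Rps3a ran from 35.7 over 37.6 to 39.2 FPKM in double mutants, against 151, 179, 165 and 278 in controls (−2.30 ± 0.13, adjusted p = 1.06e-07). Control 4 was again the highest, and no cortical double mutant reached a control.

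Rpl3, which joins the large subunit early in assembly and lies near its catalytic centre, fell less but in every mutant library. In cerebellum it ran from 67.6 over 70.4 to 77.4 FPKM in double mutants, and was 65.3 and 61.5 in Aptx mutants, 61.0 and 62.6 in Atm mutants, and 129, 121, 124 and 118 in controls. Log2 fold changes were −0.78 ± 0.05 (adjusted p = 1.1e-07) in double mutants, −0.95 ± 0.07 (adjusted p = 1.03e-06) in Aptx mutants and −0.98 ± 0.07 (adjusted p = 6.28e-07) in Atm mutants. Cortical levels ran from 74.0 over 81.8 to 88.5 FPKM in double mutants, against 116, 120, 127 and 116 in controls (−0.55 ± 0.05, adjusted p = 8.98e-06). Double mutant 6, whose cerebellum column was written with as many digits as the controls, lay below every control for all 3 genes, at 10.1 FPKM for Rpl29, where it was the highest double mutant and stood apart from the others, 39.5 for Rps3a and 74.2 for Rpl3. Against the 4 controls this library alone gave cerebellar log2 fold changes of −2.84 for Rpl29, −0.72 for Rpl3 and −2.23 for Rps3a. A single library has no spread of its own, this one had an intermediate level of Ddx3y, and the part of the column format in these falls was not tested.

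**Figure D2:**
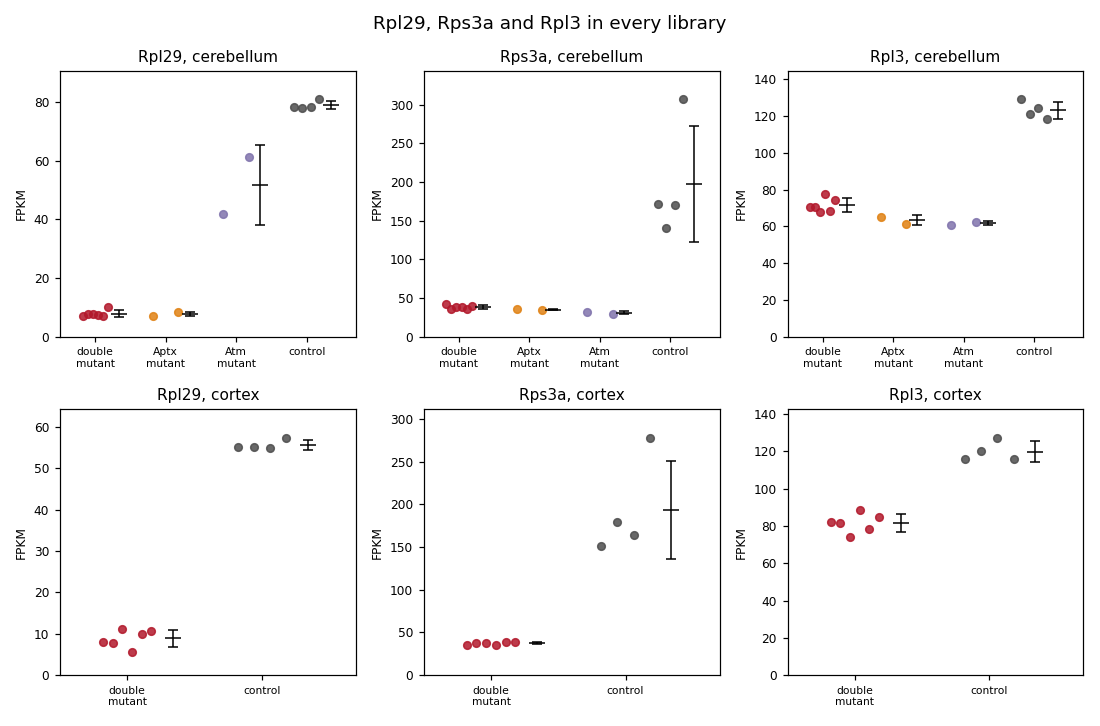
Level of Rpl29, Rps3a and Rpl3 in FPKM (vertical axes) in every library by genotype, in cerebellum (top) and cortex (bottom); points are libraries and bars are the mean ± SD. Every mutant library lies below every control for each gene, Atm mutants stand at 42.0 and 61.3 FPKM for Rpl29, and control 4 stands apart for Rps3a at 307 and 278 FPKM.

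Over all subunit genes of the cerebellum, calls went in both directions, and the share that rose was near that of all genes. Of 77 genes, 18 rose and 12 fell, that is 23.4% and 15.6%, against 22.3% of all 13277 tested genes that rose and 10.1% that fell. The median log2 fold change was 0.05 for the subunit genes and 0.06 for all genes. Double mutants did not overlap controls for 14 higher and 9 lower subunit genes, where 15.5% and 6.32% of all genes did so. Under scalings that set every library to the same median or distribution, the calls for all genes moved to 1947 higher and 1961 lower or to 2081 and 1909, against 2967 and 1340 as deposited, and 8 or 7 subunit genes rather than 18 rose.

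Large-subunit genes gave 9 that rose and 8 that fell. Besides Rpl29 and Rpl3, those that fell included Rpl23a (−0.44), which lines the exit of the nascent chain tunnel, Rplp0 (−0.35), the base of the stalk that recruits elongation factors, and Rpl10 (−0.34), which joins late and allows the subunits to associate. The strongest rise among them was that of Rpl14, which ran from 104 over 115 to 128 FPKM in double mutants, against 85.5, 91.5, 89.6 and 80.8 in controls (0.41 ± 0.06, adjusted p = 0.000239). Its groups did not overlap. Rpl7 (0.31), Rpl8 (0.25), Rpl23 (0.25) and Rpl4 (0.23) rose as well, and Rpl5 and Rpl11, which can bind Mdm2, were not called.

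Among small-subunit genes 9 rose and 4 fell. Rps12 ran from 52.5 over 58.8 to 62.9 FPKM in double mutants, against 76.4, 86.8, 86.9 and 88.2 in controls (−0.54 ± 0.06, adjusted p = 2.38e-05), with no overlap. Rps29 (−0.43) and Rps6 (−0.27), the protein phosphorylated by the S6 kinases, also fell. Rps26 ran from 106 over 119 to 151 FPKM in double mutants, against 84.6, 74.2, 86.6 and 90.03 in controls (0.55 ± 0.09, adjusted p = 0.000392), again without overlap. It rose most of all subunit genes, and Rps4x (0.33), Rps28 (0.29) and Rps24 (0.29) rose as well. Rps26, Rps24, Rps28 and Rps29 are among the genes mutated in human Diamond-Blackfan anaemia, and they did not move in 1 direction.

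Of the genes that fell, Rpl23a ran from 34.7 to 44.1 FPKM in double mutants, against 47.5, 46.0, 58.4 and 61.1 in controls (−0.44 ± 0.09, adjusted p = 0.00306). Rplp0 ran from 52.9 to 61.1 FPKM in double mutants, against 64.2, 68.8, 71.8 and 89.9 in controls, and Rpl10 from 60.5 to 73.8 in double mutants, against 84.3, 83.1, 86.4 and 88.9 in controls. None of these groups overlapped, and single-mutant libraries lay with the double mutants or below them, at 28.4 to 36.8 FPKM for Rpl23a, 47.5 to 52.1 for Rplp0 and 59.6 to 62.9 for Rpl10. The 47 subunit genes that were not called kept within −0.23 and 0.22 except for Rpl34, and 44 of them within 0.2 in either direction. A missed threshold does not show that these genes did not differ.

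In cortex 15 subunit genes rose and 18 fell (19.5% and 23.4%), against 24.3% and 14.5% of all 12815 tested genes. The median log2 fold change was 0.01 for the subunit genes and 0.03 for all genes. Under quantile normalization the calls for all genes in cortex moved to 2515 higher and 2556 lower, against 3112 and 1858 as deposited. Fewer subunit genes then rose and more fell. Double mutants did not overlap controls for 14 higher and 12 lower subunit genes, against 17.7% and 9.39% of all genes. Rps6 fell further than in cerebellum, to 73.1 to 81.3 FPKM in double mutants, against 104, 110, 112 and 117 in controls (−0.51 ± 0.04, adjusted p = 5.51e-06). Rpl27a (−0.33), Rps7 (−0.32), Rpl11 (−0.22) and Rpl5 (−0.19) fell in cortex and were not called in cerebellum. Rpl37, which ran from 91.2 to 109 FPKM in double mutants against 76.5, 74.1, 69.7 and 77.8 in controls (0.39), rose most, followed by Rps26 (0.36) and Rps4x (0.35). Outside Rpl34, the uncalled genes kept within −0.15 and 0.17.

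The genes that rose in both tissues numbered 11, which was 61.1% of those in cerebellum and 73.3% of those in cortex. They included Rpl14, Rpl23, Rpl32, Rpl4, Rpl7, Rpl8, Rplp2, Rps19, Rps26 and Rps4x. Those that fell in both numbered 10, or 83.3% of the cerebellar and 55.6% of the cortical genes, and were Rpl10, Rpl15, Rpl19, Rpl23a, Rpl29, Rpl3, Rplp0, Rps12, Rps3a and Rps6. Over all genes tested in both tissues, 34.7% of those that rose in cerebellum and 32.4% of those that rose in cortex did so in both, and 25.0% and 16.9% of those that fell. No subunit gene was called in opposite directions, and the same-numbered libraries of the 2 tissues deviated together. All these overlaps were counted on the levels as deposited.

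**Figure D3:**
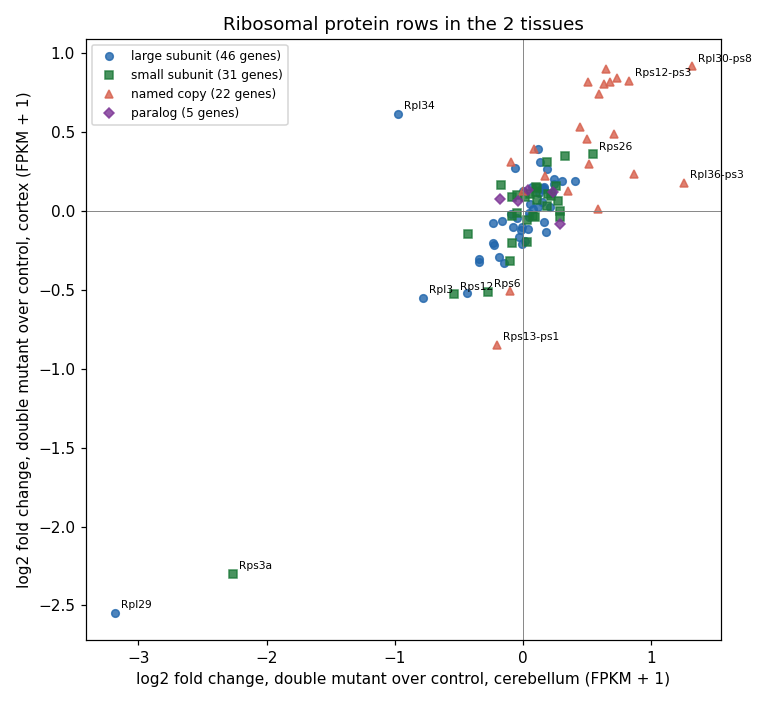
Log2 fold change of FPKM + 1, double mutant over control, in cerebellum (horizontal axis) and cortex (vertical axis) for members tested in both tissues, with symbols for large-subunit genes, small-subunit genes, named copies and paralogs. Rpl29 (−3.18 and −2.54) and Rps3a (−2.26 and −2.30) lie far below the rest, most named copies lie at the upper right, and Rpl34 (−0.97 and 0.62, neither called) lies apart.

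Subunit genes that fell had more copies at the median than those that rose. In cerebellum the 12 genes that fell had a median of 8 copies in the genome and 11 of them had a copy listed in the files, whereas the 18 that rose had a median of 2 copies and 6 had a listed copy. Of the 46 searched genes that were not called, 28 had a listed copy, with a median of 5 copies. In cortex the medians were 9, 3 and 5 copies, and 16 of 18 genes that fell, 7 of 15 that rose and 22 of 43 that were not called had a listed copy. Hosts of small noncoding RNAs made up 6 of 12 cerebellar genes that fell, 5 of 18 that rose and 20 of 46 that were not called. Rps19, which rose in both tissues, entered with 0 copies although Rps19-ps1 is a member, so copies of the genes that rose may be undercounted. These shares describe the genes and were not tested.

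Named copies that passed the filter mostly rose or were not called. Their summed level was 419 to 529 FPKM in double-mutant cerebella, 405 to 421 in Aptx mutants, 436 to 483 in Atm mutants and 300.01 to 354 in controls, and in cortex 454 to 574 in double mutants and 311 to 367 in controls, so that every mutant library lay above every control. Of the 25 named copies that passed the filter in cerebellum, 14 rose and 1 fell, beside 22.3% and 10.1% of all genes, with a median log2 fold change of 0.51 against 0.06 over all genes. The other 30 named copies did not pass the filter, at no more than 1.21 FPKM in any cerebellum library, and are not in these counts, and of those tested the lowest in control cerebella were Rpl29-ps2 (0.551 FPKM on average), Rpl36-ps3 (0.607) and Rpl7a-ps3 (0.642). Copies with a control mean under 1 FPKM, 4 in cerebellum and 1 in cortex, can pass the filter through the mutants alone, so that their rise is no independent count. Without them, a choice made after seeing the data, 12 of 21 rose and 1 fell in cerebellum and 12 of 23 rose and 1 fell in cortex. In cortex 13 of 24 rose and 1 fell, with a median of 0.35, and 10 rose in both tissues. Rpl30-ps8 ran from 10.1 over 12.3 to 18.2 FPKM in double-mutant cerebella, against 4.77, 3.76, 4.76 and 4.83 in controls (1.32 ± 0.12, adjusted p = 4.02e-06), with no overlap. Its level was 12.2 and 13.2 FPKM in Aptx mutants and 11.3 and 10.5 in Atm mutants, also above every control. Rps12-ps3 ran from 46.0 over 54.3 to 63.6 FPKM in double mutants, against 31.7, 27.7, 30.6 and 30.3 in controls (0.83 ± 0.08, adjusted p = 6.32e-06), again apart.

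Rpl10-ps3 (0.73 in cerebellum and 0.84 in cortex), whose coding sequence is identical to that of Rpl10, Rps27a-ps2 (0.68 and 0.82), Rpl9-ps4 (0.65 and 0.90) and Rpl9-ps6 (0.63 and 0.80) rose in both tissues. In cerebellum Rps27a-ps2 ran from 37.1 to 49.1 FPKM in double mutants, against 27.3, 23.0, 28.5 and 26.9 in controls, and Rps19-ps4 from 2.75 to 3.27 in double mutants, against 1.22, 0.955, 1.53 and 1.10 in controls (0.86). Both stood apart, while in cortex Rps19-ps4 overlapped between the groups and was not called (0.23). The effect on Rps19-ps4 differed between the tissues (0.63 ± 0.17, adjusted p = 0.00931). Rpl36-ps3, which passed the filter only through mutants and is given without a test, was highest in double mutant 6, at 13.4 FPKM, beside 1.32 to 2.65 in the other double mutants and 0.359 to 0.899 in controls. Rps13-ps1 ran from 19.1 to 51.3 FPKM in cortical double mutants, against 64.1, 63.6, 81.0 and 34.5 in controls, and was the named copy that fell in cortex (−0.85 ± 0.24, adjusted p = 0.0141). Its groups overlapped. In cerebellum Rps19-ps1 fell (−0.51).

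When copies under other names were added, 86 listed copies of subunit genes were tested in cerebellum. Of these, 52 rose and 2 fell, beside 22.3% and 10.1% of all genes, with a median of 0.47, and 12 rose while their own parent gene fell. Without the 18 whose control mean was under 1 FPKM, 42 of 68 rose and 2 fell. In cortex 45 of 77 rose and 4 fell, beside 24.3% and 14.5% of all genes, or 43 of 73 and 4 without the low ones, with a median of 0.42, and 19 rose while the parent fell. The copies of Rps3a were the most abundant: Gm10119 ran from 97.8 over 116 to 130 FPKM in double-mutant cerebella, against 61.0, 54.9, 58.4 and 41.8 in controls. Gm9000 ran from 95.01 over 96.4 to 118 FPKM in double mutants, against 44.7, 41.3, 48.7 and 8.49 in controls. Both stood apart between the groups, and control 4, highest for Rps3a, was lowest for both.

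Summing each parent with its listed copies, an alternative chosen after seeing the data, gave other calls for some of these genes and not for others. Rps3a with its 2 listed copies summed to 256 ± 19.4 FPKM in double-mutant and 287 ± 50.4 in control cerebella, with 82.9% to 86.6% of the sum in the copies in double mutants and 14.1% to 40.6% in controls. The families overlapped, and the log2 fold change of the sum was −0.15 (adjusted p = 0.219), or −0.28 (adjusted p = 0.0415) when genes were weighted by length. In cortex it was −0.22 (adjusted p = 0.0227). Rps12 with 3 copies summed to 138 to 163 FPKM in double mutants and 133 to 143 in controls, so that the log2 fold change of the sum was positive (0.13 in cerebellum and 0.17 in cortex) where that of Rps12 was negative. Rpl23a with 9 copies likewise gave 0.22 and 0.19, and the sums of both families missed the threshold in both tissues (adjusted p = 0.0569 to 0.0898). Rpl10 with Rpl10-ps3 summed to 96.7 to 124 FPKM in double-mutant and 107 to 115 in control cerebella, which overlapped (−0.02, adjusted p = 0.874), with 36.6% to 40.9% of the sum in the copy in double mutants and 21.5% to 23.4% in controls.

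Rpl29 and Rpl3 kept their fall when their listed copies were added. These were 7 of the 27 copies found for Rpl29 and 1 of the 7 found for Rpl3. Copies that are not listed are missing from all these sums. Rpl29 with 7 listed copies summed to 11.3 to 19.0 FPKM in double mutants and 89.4 to 93.1 in controls (−2.70, adjusted p = 9.29e-10), and in cortex to 11.2 to 17.3 FPKM in double mutants and 63.9 to 66.1 in controls (−2.10, adjusted p = 4.16e-08). Rpl3 with its single listed copy summed to 72.2 to 82.5 FPKM in double mutants and 122 to 132 in controls (−0.72, adjusted p = 2.19e-07). Of the 45 parents with a listed copy, 6 rose and 11 fell by themselves in cerebellum, and 18 rose and 5 fell as sums. Those 5 had all fallen by themselves, while 5 more became uncalled and 1, Rplp0, was higher as a sum (0.19, adjusted p = 0.00972). In cortex 7 rose and 16 fell by themselves, and 18 rose and 6 fell as sums. Of those 16, 3 were higher as sums, namely Rplp0 (0.22, adjusted p = 0.0138), Rpl27a (0.22, adjusted p = 0.0029) and Rpl31 (0.21, adjusted p = 0.0239), and 7 became uncalled. Rps6, whose 2 listed copies held at most 2.27% of the sum in double-mutant cerebella, fell as a sum in cerebellum (−0.26) and in cortex (−0.51). When copies were weighted by transcript length, 6 parents fell as sums in each tissue, and the Rplp0 sum was not called in cerebellum (0.11, adjusted p = 0.115), nor were those of Rplp0, Rpl27a and Rpl31 in cortex (adjusted p = 0.093 to 0.257).

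**Figure D4:**
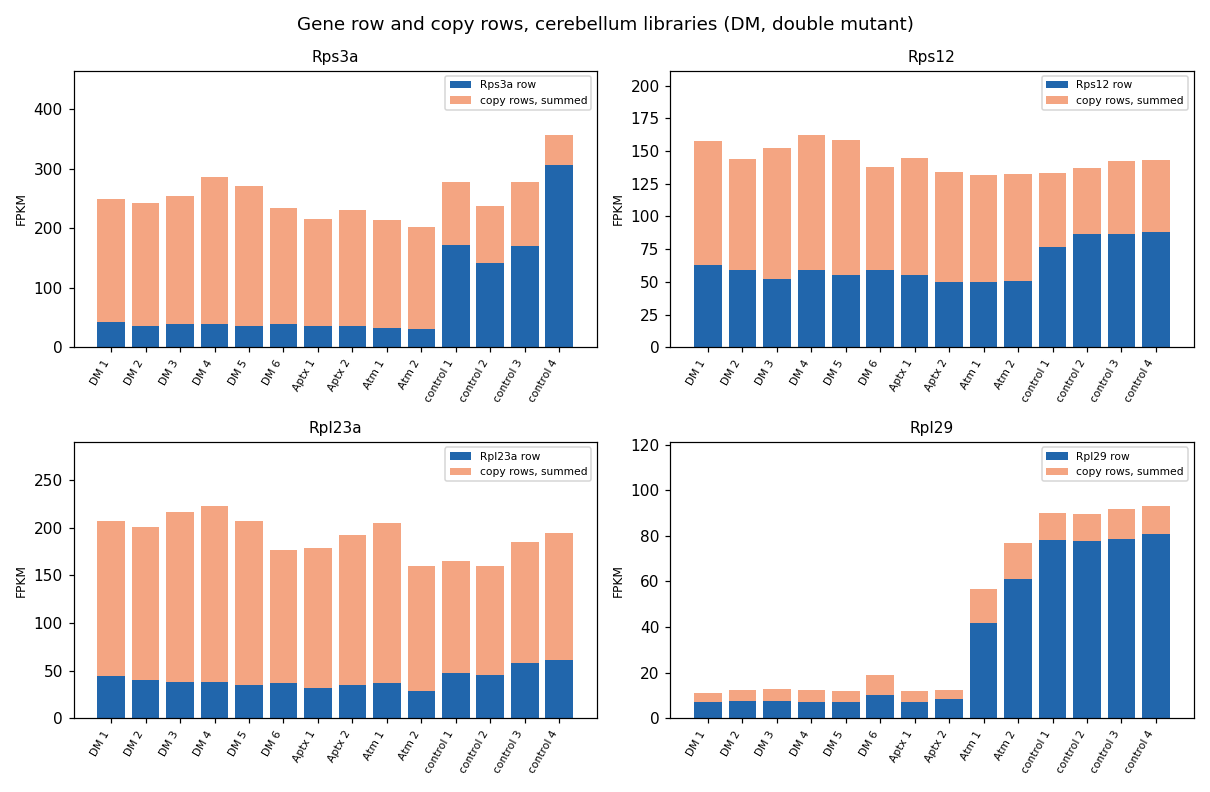
Stacked FPKM (vertical axes) of a gene (dark) and of its listed copies summed (light) in each cerebellum library, for Rps3a, Rps12, Rpl23a and Rpl29. Rps3a itself is 36.1 to 42.5 FPKM in double mutants (DM) against 141 to 307 in controls while the family sums of 233 to 286 and 237 to 357 overlap, whereas the Rpl29 sum stays at 11.3 to 19.0 in double mutants.

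Rpl34, a large-subunit protein, was not called between double mutants and controls in either tissue, but its libraries fell into high and low values. In double-mutant cerebella it stood at 15.2, 92.9, 104, 111, 11.3 and 38.3 FPKM (double mutants 1 to 6), at 11.9 and 13.3 in Aptx mutants, at 45.7 and 75.2 in Atm mutants, and at 117, 54.8, 125 and 74.2 in controls. Its copy Gm10154 stood at 36.6, 1.49, 1.53, 2.71, 39.2 and 0.445 FPKM in the same double mutants, at 32.7 and 32.9 in Aptx mutants, at 17.6 and 2.85 in Atm mutants, and at 1.34, 13.95, 0.904 and 19.96 in controls. The 4 libraries lowest for Rpl34, double mutants 1 and 5 and both Aptx mutants, were the highest for the copy, and double mutant 6 had the lowest level of the copy and a low level of Rpl34.

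Cortex, where no Aptx mutants were sequenced, repeated this in part. Double mutants 1 and 5 were again the lowest for Rpl34, but controls 2 and 4 were the highest for the copy. Rpl34 stood at 12.4, 83.1, 101, 83.7, 13.8 and 39.8 FPKM in double mutants 1 to 6, against 32.5, 21.4, 32.5 and 22.4 in controls. Gm10154 stood at 35.2, 2.35, 2.93, 4.598, 45.01 and 0.690 FPKM in the double mutants, against 3.30, 109, 1.497 and 95.2 in controls. Double mutants 1 and 5 were the highest double mutants for the copy in both tissues. Controls 2 and 4 were above controls 1 and 3 for the copy, and below them for Rpl34, in both. The log2 fold change of Rpl34 was −0.97 ± 0.57 in cerebellum (adjusted p = 0.204) and 0.62 ± 0.54 in cortex (adjusted p = 0.383). In Aptx mutants it fell (−2.72 ± 0.76, adjusted p = 0.0281), a call lost without either Aptx mutant (adjusted p = 0.151 without Aptx mutant 1 and 0.134 without 2) and without control 1 (0.0599) or control 3 (0.0635).

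**Figure D5:**
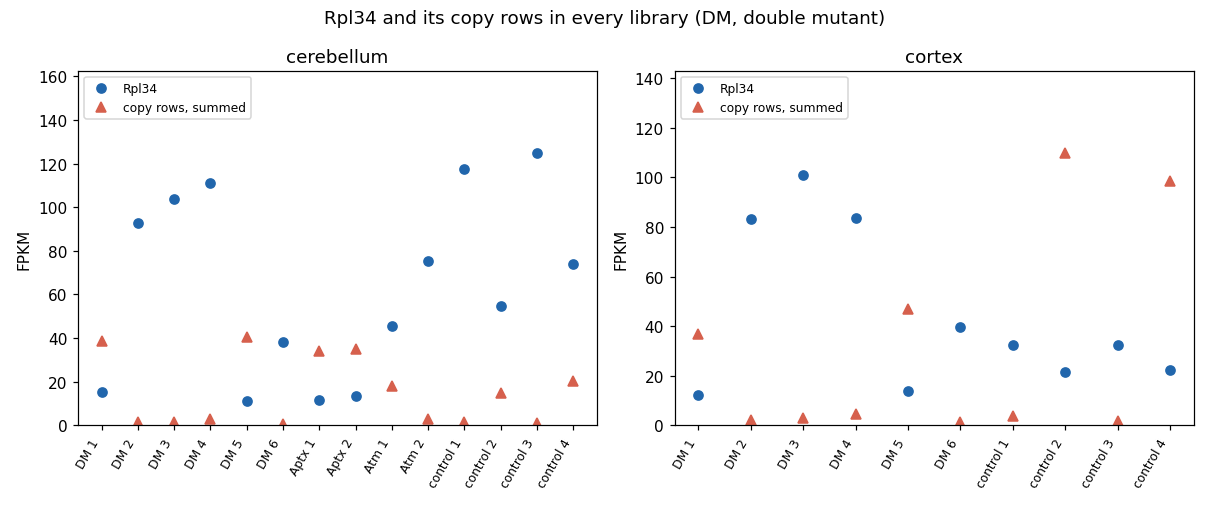
FPKM (vertical axes) of Rpl34 (circles) and of its listed copies summed (triangles) in every library of cerebellum (left) and cortex (right). Double mutants (DM) 1 and 5 are low for Rpl34 and high for the copies in both tissues, and controls 2 and 4 reach 109 and 95.2 FPKM of Gm10154 in cortex.

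Single mutants, compared with the same 4 controls, showed falls of subunit genes and hardly any rise. In Aptx mutants 18 of 77 fell and 2 rose, Rpl14 (0.30) and Rps24 (0.26), against 5.16% of all genes that fell and 10.4% that rose, with a median of −0.14 against 0.06 over all genes. In Atm mutants 19 fell and none rose in limma (1 rose at an unadjusted p below 0.05), against 3.25% and 6.78% of all genes, with a median of −0.16 against 0.05. Besides Rpl29, Rps3a and Rpl3, the falls included Rps12 (−0.68 in Aptx and −0.74 in Atm mutants), Rpl23a (−0.64 and −0.69), Rps29 (−0.60 and −0.67), Rps21 (−0.59 and −0.53), Rplp0 (−0.51 and −0.59) and Rpl10 (−0.51 and −0.47). Each group had 2 libraries, and the falls numbered 6 or 10 without Aptx mutant 1 or 2 and 12 or 10 without Atm mutant 1 or 2. With copies summed into their parents, the falls numbered 8 in Aptx and 10 in Atm mutants.

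Named copies rose in the single mutants too, 10 of 25 in Aptx mutants and 9 in Atm mutants, beside 10.4% and 6.78% of all genes. Of the 21 with a control mean of at least 1 FPKM, 9 and 7 rose. None fell in limma (2 and 0 at an unadjusted p below 0.05), beside 5.16% and 3.25% of all genes. Rpl30-ps8 rose by 1.31 in Aptx mutants (adjusted p = 0.000202) and by 1.11 in Atm mutants (adjusted p = 0.00105). Rps12-ps3 rose by 0.63 and 0.62 and Rpl10-ps3 by 0.49 and 0.55. Rps2-ps6 in Atm mutants was at the threshold (0.69, adjusted p = 0.0499) and lost the call when any of several libraries was left out.

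Double mutants stood above the mean of the single mutants for nearly all subunit genes. The difference was positive for 76 of 77, with a median of 0.20 against 0.00 over all genes, and 16 were higher and 1, Rpl29, was lower at the threshold, against 1.13% and 0.851% of all genes. For 33 subunit genes every double mutant lay above all 4 single mutants, against 2.46% of all genes, and for none did every double mutant lie below them, against 2.07%. Rpl30, which regulates the splicing of its own message in yeast, differed most: it ran from 27.6 over 30.5 to 33.7 FPKM in double mutants, against 25.2 and 27.8 in Aptx mutants and 17.99 and 15.9 in Atm mutants. The difference was 0.49 ± 0.07 (adjusted p = 0.00187), and its Aptx and double-mutant values overlapped while the Atm values lay below all others. Rps21 (0.39), Rps19 (0.32), Rpl37 (0.31) and Rps15a (0.30) were also higher in double mutants, and Rps21 was at 159 to 205 FPKM in double mutants, against 128, 130, 135 and 133 in the 4 single mutants.

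This count rested on few libraries. It was 2 without either Aptx mutant, 4 or 3 without Atm mutant 1 or 2, 9, 8 or 7 without double mutant 1, 3 or 5 and 10 without control 3, and 4 when libraries were rescaled to the same median. Against Aptx mutants alone no subunit gene passed limma's threshold, although 76 of 77 differences were positive (median 0.17) and 32 were higher at an unadjusted p below 0.05, and 0.0829% of all genes were higher and 0.0603% lower. Against Atm mutants alone 8 were higher and 1 was lower, beside 1.29% and 0.949% of all genes, with Rpl30 (0.80, adjusted p = 0.000197), Rps15a (0.40), Rps19 (0.38) and Rps13 (0.37) highest and Rpl29 lower. That count of 8 was 1 or 2 without Atm mutant 1 or 2, 5 without double mutant 3, 5 or 6, 14 without control 2, and 2 when rescaled. No named copy was called by limma in these 3 comparisons, where 6, 5 and 4 were higher and 1, 0 and 3 lower at an unadjusted p below 0.05 against the mean, Aptx mutants and Atm mutants in turn.

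In a fit that did not pair the tissues, the double-mutant effect was compared between tissues within the double-mutant and control libraries. It was more positive in cerebellum for 6 subunit genes and more negative for 5, against 15.4% and 11.7% of all 12292 genes tested, with a median difference of 0.04 against 0.03. Rpl29 fell by 0.64 ± 0.17 more in cerebellum (adjusted p = 0.00896), and Rpl3 by 0.23 ± 0.07 more (adjusted p = 0.0233). The fall of Rps3a did not differ at the threshold (0.04 ± 0.22, adjusted p = 0.92). Rps24 was positive in the difference (0.33 ± 0.09, adjusted p = 0.00909): it ran from 196 to 246 FPKM in double-mutant cerebella, against 181, 166, 183 and 187 in controls, and from 192 to 232 in cortical double mutants, against 201, 223, 222 and 207 in controls. Rpl30 (0.31), Rps28 (0.29), Rps6 (0.24), Rpl14 (0.22) and Rpl5 (0.21) were positive as well. Rps21 (−0.34), Rpl36 (−0.33) and Rpl37 (−0.28) were negative, near the threshold, and lost the call when any of several libraries was left out.

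Paralogs, which replace a subunit protein in certain tissues, were low or little changed. Rpl10l, known from testis, stood at 0 in every library, and Rpl39l was above 0 in a single cerebellum library, Aptx mutant 1, at 0.180 FPKM, and in 4 of 10 cortex libraries, at no more than 0.190 FPKM. Rps27l, which p53 induces in human cells, ran from 15.2 to 23.2 FPKM in double-mutant cerebella, against 16.1, 14.4, 14.1 and 16.8 in controls (0.29, adjusted p = 0.0297), with overlap. Its cortical change was −0.08, which missed the threshold. Rpl7l1 rose in cerebellum (0.24), Rpl36al rose in cortex (0.13), and Rpl22l1 and Rps4y2 were not called in either tissue. Rps19bp1 rose in both tissues (0.33 and 0.31).

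Other genes serve the ribosome without being part of it. Of 57 tested ribosome biogenesis factors, 24 rose (42.1%, beside 22.3% of all genes) and 1, Polr1e, fell in double-mutant cerebella, with a median of 0.13. In cortex 27 rose (47.4%, beside 24.3%), with a median of 0.16, and none fell in limma (1 at an unadjusted p below 0.05). The cerebellar examples Taf1b (0.39), a factor of RNA polymerase I, Ncl (0.38), the nucleolar protein nucleolin, and Ubtf (0.30), another polymerase I factor, stand beside Eif6 (0.33), which keeps the free large subunit from joining, and Eif6 led in cortex (0.48). Translation factors with TOP messages gave 8 of 19 that rose and 1 that fell in cerebellum, with Eef1a1 at 0.44, and 5 and 1 in cortex, where 5 of 19 is near the share of all genes (26.3% beside 24.3%). The factor that fell in both was Eif2s3x (−0.70 and −0.80), an X-linked gene, and the part of the uneven sexes in its fall was not tested. Among the members Rps4x is X-linked too, and double mutants 1 and 4, in which Ddx3y was near 0 as in all controls, stood at 155 and 180.1 FPKM of Rps4x in cerebellum, against 117 to 137 in controls. These are single libraries, and the part of the uneven sexes in the rise of Rps4x was not tested either.

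Of the mTOR and TOP control genes, 4 of 17 rose and 1 fell in cerebellum and 3 rose and 2 fell in cortex, where the rises (23.5% and 17.6%) were near or below the shares of all genes (22.3% and 24.3%). Those called in cerebellum included Eif4ebp1 (0.62), the translation repressor that mTOR inactivates, and Akt1, which was lower (−0.26). Of 5 tested genes that link ribosome assembly to p53, 4 rose in cerebellum, beside 22.3% of all genes. They were Cdkn1a (0.76), Gltscr2 (0.33), Mdm4 (0.24) and Mdm2 (0.22). In cortex 2 rose, Cdkn1a (0.51) and Gltscr2 (0.18), beside 24.3% of all genes. The median log2 fold change of these 5 genes was 0.24 in cerebellum, where 1 was negative, and −0.07 in cortex, where 3 were negative. Of 3 tested ribosomal protein genes under other symbols, 1 rose in each tissue, Gnb2l1, the scaffold of the small subunit (0.22 and 0.19), and 1 fell in cortex.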

How the data were processed

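The authors sequenced stranded libraries of total RNA after removal of ribosomal RNA, mapped reads to the mouse genome mm9 with BWA 0.5.10 and counted genes with HTSeq (version not given in the sources used here). The paper adds that reads were also aligned to RefSeq, to pairs of nonsequential RefSeq exons and to AceView transcripts. How a read matching both a spliced message and an intronless copy was assigned is not given there. The deposited values are FPKM per gene and library, made by the authors, with 1 table of 22562 genes per tissue. With FPKM alone the depth of a library is not known and counting intervals could not be given. Levels in the 2 tissues come from separate tables and were not tested against each other.

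Genes with at least 1 FPKM in at least 2 cerebellum or 4 cortex libraries were transformed as log2(FPKM + 1), which understates changes of low genes, and fitted with limma 3.58.1 in R 4.3.3 (empirical Bayes with trend). Tests were two-sided and adjusted after Benjamini and Hochberg over all genes tested. The 14 cerebellum libraries shared a fit, the 10 cortex libraries another, and the tissue difference was fitted on the 20 double-mutant and control libraries. The code was tested on simulated data. Genes named were Rpl29, Rps3a and Rpl3, called members with the largest changes (the 6 lowest and 6 highest without overlap in each tissue for double mutants against controls, and 4 and 4 in the other comparisons), the members with the highest and lowest control levels, the paralogs, and the called genes at either end of each list. The remaining genes (such as Rpl34, Gm copies and further examples) were chosen after their values were seen, and a few genes are not reported here. Members and lists were chosen with earlier results of these data known. Copies were found by searching the longest GENCODE M1 coding sequence of each gene in the mm9 assembly with BLAST 2.17.0. Alternatives covered the pseudocount (0.1 and 0.01), the filter, scaling, the trend, each library left out and a replicate block, and, chosen after seeing the data, copy families summed, double mutant 6 alone, and copies with a control mean of at least 1 FPKM. Replicate numbers are shared by the tissues in the labels, and same-numbered cerebellum and cortex libraries deviated together, with correlations of 0.24 to 0.50 in double mutants and 0.13 to 0.31 in controls, so the numbers pair the tissues.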

Additional observations from a re-analysis of the deposited data

Results flagged for a closer look

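Within groups of 4 or 6 libraries, 184 combinations of a gene and a group were examined for a library far from the others of its group, and 14 were found, where chance marks about 1 in 20. In cerebellum the libraries that stood apart were double mutant 6 for Rpl29 (10.1 FPKM) and Rpl36-ps3 (13.4), double mutant 5 for Rpl7l1 (20.9), double mutant 1 for Rps21 (205), control 2 for Rpl30-ps8 (3.76) and control 1 for Rps12 (76.4). In cortex they were double mutant 6 for Rpl21-ps10 (1.84 FPKM) and Rpl36-ps3 (5.83), double mutant 3 for Rpl30-ps8 (13.6) and Rpl36al (31.2), double mutant 1 for Rps2-ps6 (29.1), control 3 for Rpl23a (52.5) and Rpl9-ps4 (18.9), and control 4 for Rpl29 (57.4). Rpl36-ps3 was high in double mutant 6 in both tissues.

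The double-mutant effect differed between tissues (limma interaction, adjusted p below 0.05) for these named members. The difference, cerebellum minus cortex on the log2 scale, was −0.64 for Rpl29, −0.23 for Rpl3, −0.34 for Rps21, −0.33 for Rpl36, −0.28 for Rpl37, 0.31 for Rpl30, 0.33 for Rps24, 0.37 for Rps27l and 0.63 for Rps19-ps4. The call of Rpl3 was lost without cerebellum control 1 (adjusted p = 0.0526) or cortex control 1 (adjusted p = 0.0505), and those of Rps21, Rpl36, Rpl37 and Rps27l without any of at least 8 libraries each.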

How the results depend on the processing

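With each library left out in turn, the counts of subunit genes that rose and fell in double mutants against controls ran from 14 to 20 and from 10 to 17 in cerebellum and from 11 to 19 and from 16 to 19 in cortex, and named copies from 14 to 15 and from 0 to 1, and from 10 to 13 and from 0 to 1. The range was 0 to 3 and 6 to 24 in Aptx mutants, 0 to 0 and 10 to 28 in Atm mutants, 2 to 20 and 1 to 1 against the mean of the single mutants, 0 to 0 and 0 to 0 against Aptx mutants, 1 to 14 and 1 to 1 against Atm mutants, and 4 to 9 and 2 to 5 for the tissue difference.

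Quantile normalization gave 7 rises in cerebellum, 5 rises and 35 falls in cortex, 1 rise in Aptx mutants, and 12 positive and 2 negative tissue differences. Rescaling to the same median gave 8 rises in cerebellum, 0 in Aptx mutants, 4 against the mean of the single mutants, 2 against Atm mutants and 2 positive tissue differences. All-gene calls in cortex moved to 2515 higher and 2556 lower (quantile) or 2701 and 2385 (rescaled), against 3112 and 1858, in Aptx mutants to 918 and 897 or 797 and 966, against 1385 and 685, and in Atm mutants to 523 and 560 or 537 and 593, against 900 and 431. Without a filter there was 1 rise in Aptx mutants, 8 against the mean of the single mutants, 3 negative tissue differences and 3 named copies lower in cortex. Without limma's trend there was 1 rise in Aptx mutants and 10 against the mean of the single mutants. Both pseudocounts left every count within 1.5 times.

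With copy families summed, or summed by length, 30 or 28 subunit genes rose and 6 or 7 fell in cerebellum, 26 or 22 rose and 8 fell under both in cortex, 5 or 2 rose and 8 or 10 fell in Aptx mutants, and 1 or 0 rose and 10 or 11 fell in Atm mutants. Among the results named by rule, log2 fold changes reversed for Rps12 (0.13 or 0.10 in cerebellum, 0.17 or 0.14 in cortex) and Rpl23a (0.22 or 0.20, 0.19 or 0.17, and 0.041 or 0.021 in Atm mutants). With double mutant 6 as the only double mutant, the median log2 fold change over all genes was 0.05 in cerebellum and 0.03 in cortex. Counts of calls are not given for this setting, where the spread of a single library was taken from the controls. Of 64 results on single genes, 34 kept direction and call under every alternative.

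Double mutants and controls share only a replicate number within a tissue (correlations of deviations −0.14 to 0.34). With that number as a replicate block, 0 subunit genes were higher against the mean of the single mutants, 1 against Atm mutants, and 9 rose and 2 named copies fell in cortical double mutants. For the tissue difference, where the numbers pair the samples, the block gave 9 positive and 6 negative subunit genes. Without counts, depth cannot be used to bound low values, and copies under 1 FPKM are the least certain.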
